A study of Mus musculus with 29 samples.

Results

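Genes that mark fibroblasts and other mesenchymal cells, 10 in number, were examined for the binding of overexpressed transcription factors in NIH-3T3 cells, a line of mouse fibroblasts. The 10 genes, of 21938 protein-coding genes in the annotation, were Thy1, Pdgfra, Pdgfrb, Twist1, Twist2, Prrx1, Vim, S100a4, Fn1 and Acta2. The rule takes them by name and uses no peak, but they were named with earlier results of these data known. A peak was assigned to a gene when it overlapped the gene body or the 50 kb on either side of it (the window of the gene) on the mm10 (GRCm38) genome. The 10 windows held 458 of the 304922 peaks in all lists. Peaks that shared or touched bases were merged into sites, and 220 of the 168506 merged sites lay in these windows.

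Each library came from NIH-3T3 cells that carried a doxycycline-inducible transgene for a transcription factor with an HA tag, induced overnight with 500 ng/ml doxycycline and precipitated with an anti-HA antibody after fixation with 1% formaldehyde (ChIP-seq). There were 28 peak lists for 24 constructs: 21 wild-type factors, the FOXA1 mutants FOXA1_RR and FOXA1_SW, and OCT4-HA co-expressed with SOX2-YPET. SOX2-HA, OCT4-HA, BHLHB8-HA and FOXA1-HA were each done in duplicate (2 lists), and 20 constructs had 1 list. Input chromatin of wild-type cells has no list here. All lists therefore show overexpressed, tagged protein delivered by a lentiviral vector, and not the endogenous factor. The lists held from 52 peaks (OCT4-HA replicate 2) to 61991 peaks (BHLHB8-HA replicate 2), and they give positions only, so that the sequencing depth and the height of each peak are unknown. Expression was not analysed here, and peak lists cannot show whether the cells transcribed the 10 genes.

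The 10 genes cover the main parts of a fibroblast's identity. Thy1 is a glycoprotein of the cell surface, and the platelet-derived growth factor receptors are the tyrosine kinases through which fibroblasts receive their best known growth signal. Twist1 and Twist2 are basic helix-loop-helix factors and Prrx1 is a homeodomain factor, all active in embryonic mesenchyme. Vim (vimentin) forms the intermediate filaments of mesenchymal cells, Acta2 is the smooth muscle actin of myofibroblasts, S100a4 is a calcium-binding protein also called fibroblast-specific protein, and Fn1 (fibronectin) is a glycoprotein of the extracellular matrix. Genes of this kind are controlled from their promoters and from distant enhancers, where AP-1 and TEAD factors are known to act in fibroblasts.

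The sequences below are the middle 200 bp of the site with the most constructs in 5 of the windows, shown because these sites gathered the peaks of the most constructs at their genes. They are on the plus strand of GRCm38 and lie outside annotated exons. Capitals mark matches, on either strand, to 1 of 13 short motif groups: AP-1 (TGACTCA), SOX (ACAAAG or ACAATG), forkhead (TGTTTAC or TATTTAC), and the groups named with the motif counts further on. The Vim sequence is chr2:13558621-13558820, in a stretch between genes, and peaks of 10 constructs overlapped it. The Twist2 sequence is chr1:91816662-91816861, in an intron of Twist2, and peaks of 7 constructs overlapped it. The Fn1 sequence is chr1:71680234-71680433, upstream of the gene, with peaks of 6 constructs. The Prrx1 sequence is chr1:163209211-163209410, downstream of the gene, with peaks of 5 constructs. The S100a4 sequence is chr3:90574900-90575099, in an intron of the neighbouring S100a3, with peaks of 3 constructs.
Vim: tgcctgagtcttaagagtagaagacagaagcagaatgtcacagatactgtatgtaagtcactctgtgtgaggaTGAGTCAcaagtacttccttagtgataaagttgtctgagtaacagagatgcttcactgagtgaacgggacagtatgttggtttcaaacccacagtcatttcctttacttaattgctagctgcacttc
Twist2: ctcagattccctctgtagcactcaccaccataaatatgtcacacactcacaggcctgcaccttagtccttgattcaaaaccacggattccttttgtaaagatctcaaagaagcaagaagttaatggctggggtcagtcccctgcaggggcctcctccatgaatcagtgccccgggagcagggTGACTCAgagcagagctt
Fn1: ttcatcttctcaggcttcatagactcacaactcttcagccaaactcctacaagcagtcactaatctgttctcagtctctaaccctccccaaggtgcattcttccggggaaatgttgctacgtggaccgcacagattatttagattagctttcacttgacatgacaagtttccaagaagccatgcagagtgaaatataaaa
Prrx1: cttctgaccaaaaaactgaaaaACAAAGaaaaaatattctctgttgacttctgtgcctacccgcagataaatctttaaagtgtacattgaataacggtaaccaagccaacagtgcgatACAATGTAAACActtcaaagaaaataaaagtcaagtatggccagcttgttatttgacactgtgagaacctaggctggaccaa
S100a4: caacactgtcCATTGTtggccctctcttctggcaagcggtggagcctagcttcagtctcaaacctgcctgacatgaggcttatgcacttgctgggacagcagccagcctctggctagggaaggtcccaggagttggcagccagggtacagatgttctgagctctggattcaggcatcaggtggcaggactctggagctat

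The Vim and Twist2 sequences each held an AP-1 word, at base 74 and base 183 of the printed run. The Prrx1 sequence held 2 SOX words, at bases 23 and 119, and a forkhead word at base 124 that overlaps the second of them. Peaks of SOX2-HA and FOXA1-HA were both at that site. The S100a4 sequence held 1 SOX word, at base 11, but the SOX2-HA peak of that site (chr3:90575344-90575605) lay outside the printed run. The Fn1 sequence held no word of the 13 groups. A match is only a run of letters, and the absence of one says nothing about the factor.

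**Figure D1:**
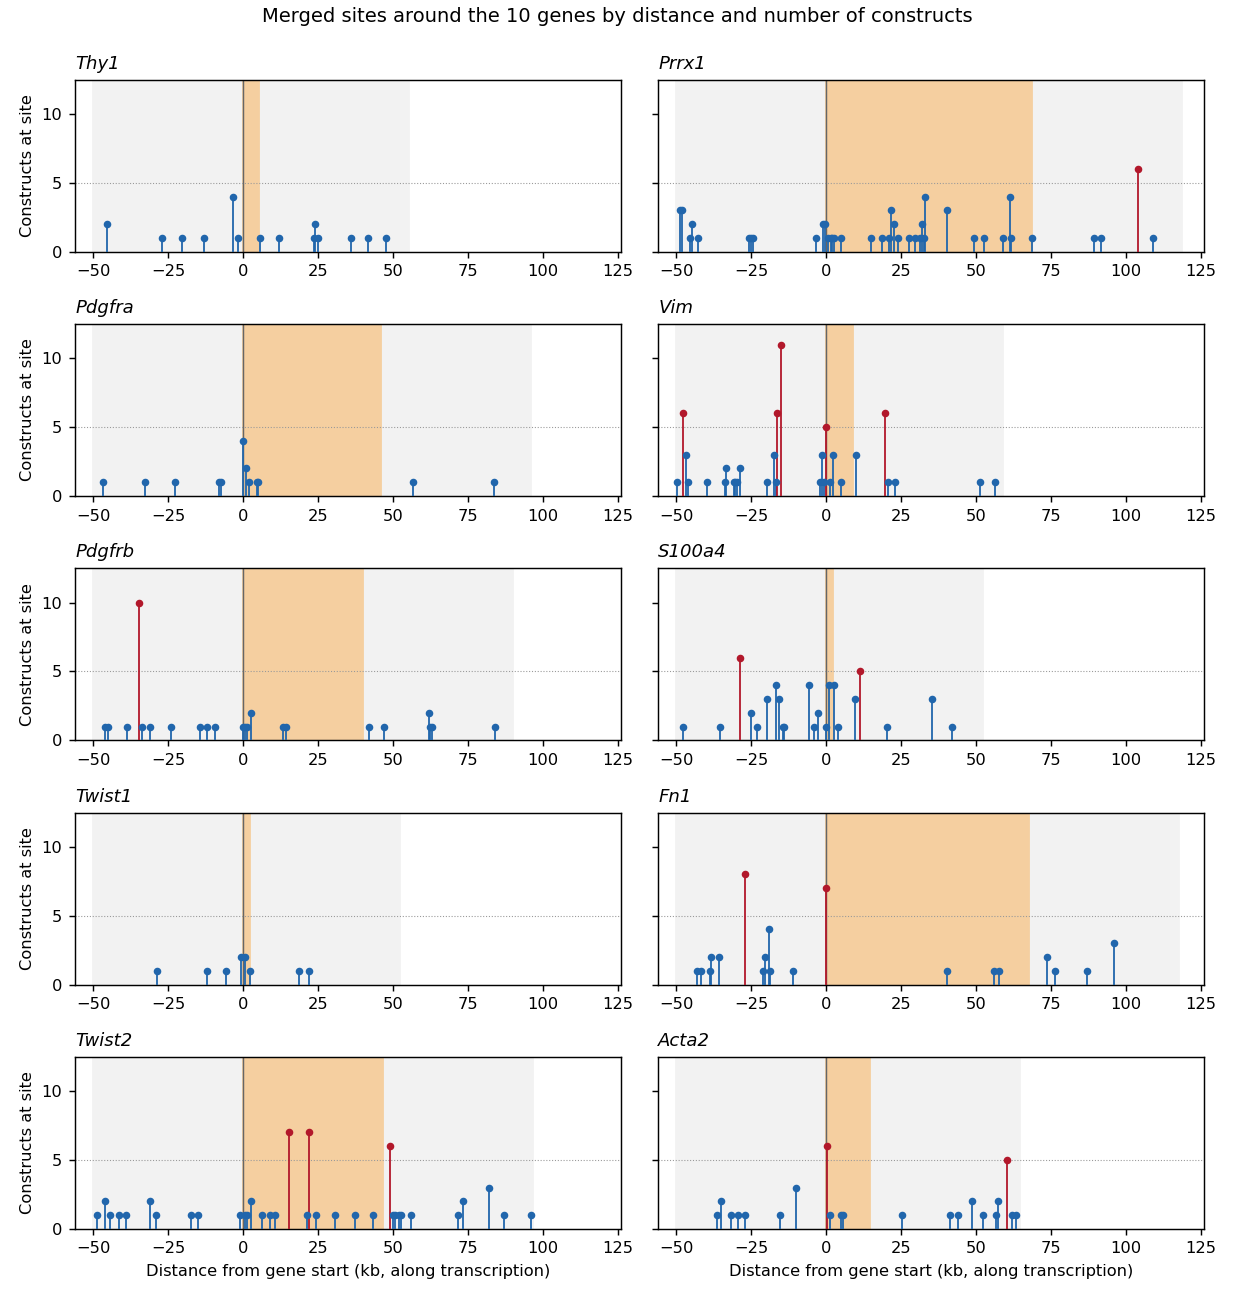
Merged sites in the window of each gene by the distance of the site's middle from the gene start (kb, in the direction of transcription) and by the number of constructs with a peak there. Orange marks the gene body, grey the window, and red the 16 sites of 5 or more constructs. Vim has 5 of them, and Thy1, Pdgfra and Twist1 have none.

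The number of sites differed widely between the genes. Prrx1 had 39 sites, Twist2 34, Vim 29, Pdgfrb and S100a4 22 each, Acta2 21, Fn1 19, Thy1 14, Pdgfra 12 and Twist1 8. Windows differ in length with the gene, from 102 kb at Twist1 and S100a4 to 169 kb at Prrx1, so that the number per 100 kb is the better measure. On that scale, and with 50 kb either side, Vim came first with 26.6 sites per 100 kb, which placed it at the 99.2 percentile of all protein-coding genes. Twist2 (23.2), Prrx1 (23.1) and S100a4 (21.5) followed, at the 98.0, 97.9 and 96.6 percentiles. Acta2 (18.3) and Pdgfrb (15.7) were at the 91.8 and 84.4 percentiles, and Thy1 (13.3) and Fn1 (11.3) at the 74.4 and 64.1 percentiles. Pdgfra (8.22) and Twist1 (7.83) were below the median of all genes, 8.83 sites per 100 kb. The order depended on the width of the window. With 10 kb either side S100a4 came first (40.4 sites per 100 kb) with Vim behind Prrx1 and Twist2 (27.7), and with 100 kb Prrx1 came first (22.7). Vim, Twist2 and Prrx1 stayed at or above the 97.3 percentile and S100a4 at or above the 91.5 percentile at all 3 widths. Twist1 went from the 44.1 percentile to 85.6 with 10 kb and 37.8 with 100 kb, Pdgfra from 46.4 to 59.2 and 55.6, and Fn1 from 64.1 to 39.9 and 57.6, so that their side of the median rests on the window. These are descriptions of 1 set of lists, with no error attached, and neighbours in this order such as Twist2 and Prrx1 should not be read as different.

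The 2 longest lists, both of BHLHB8-HA, weighed on this order. Without them the sites in the windows fell in number to 150, and the percentiles became 99.0 for Vim, 98.6 for S100a4, 98.2 for Prrx1, 93.7 for Acta2 and 91.3 for Twist2. Twist1 went above the median, to the 59.3 percentile. Pdgfrb went to the 67.2 percentile and Thy1 to the 50.2 percentile, since 8 of the 14 Thy1 sites were peaks of BHLHB8-HA alone.

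**Figure D2:**
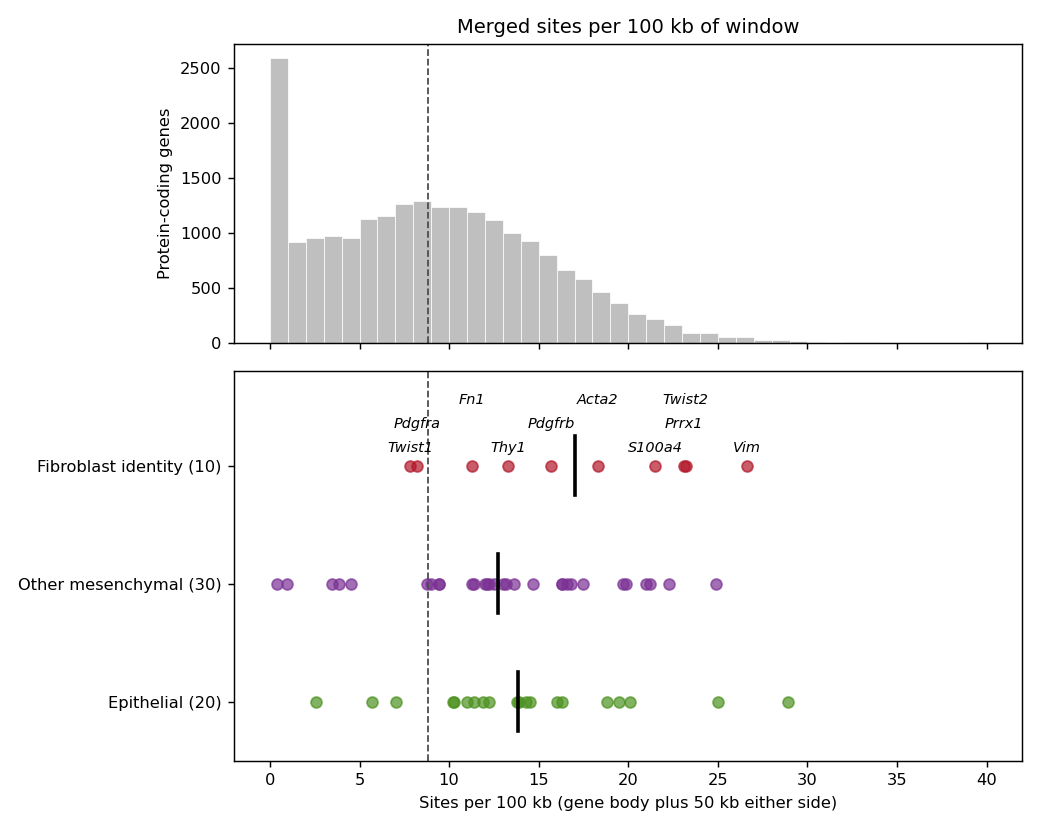
Merged sites per 100 kb of window. The upper panel counts all 21938 protein-coding genes, with genes above 40 in the last bar, and the lower panel shows each of the 10 genes, 30 other mesenchymal genes and 20 epithelial genes, with the median of each list as a black bar (17.0, 12.7 and 13.8). The dashed line is the median of all genes, 8.83, which 8 of the 10 genes exceed.

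The 3 surface proteins had few shared sites. At Thy1 (chr9:44043384-44048579, plus strand) the 14 sites came from 8 constructs, and 6 lay upstream, 8 downstream and none in the gene body. Its leading site was 3.36 kb upstream at chr9:44039759-44040288, with peaks of BHLHB8-HA replicate 1, CDX2-HA, DLX6-HA and SOX2-HA replicate 1. No construct had a peak within 1 kb of the Thy1 start, which made it the only one of the 10 genes without one. The Thy1 start was the nearest one for 7 of the 14 sites, and several of the others lay in Usp2, a deubiquitinase gene.

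Pdgfra (chr5:75152292-75198215, plus strand) had 12 sites from 9 constructs and no other protein-coding gene in its window. Its sites gathered at the start. A site at chr5:75152130-75152444, whose middle was 5 bp from the start, held peaks of DLX6-HA, FOXA1-HA replicate 1, MAX-HA and SOX2-HA replicate 1, and 110 bp were common to all of them. A second site, 1016 bp into the gene, held peaks of both BHLHB8-HA lists and of DLX1-HA. With 6 constructs within 1 kb of the start, Pdgfra was among the genes with most constructs there although its window was sparse. The 250 bases before its RefSeq start (chr5:75152001-75152250, GRCm38.p6, plus strand), which peaks of 3 constructs overlapped, are shown because this was the one start where MAX-HA had a peak.
Pdgfra: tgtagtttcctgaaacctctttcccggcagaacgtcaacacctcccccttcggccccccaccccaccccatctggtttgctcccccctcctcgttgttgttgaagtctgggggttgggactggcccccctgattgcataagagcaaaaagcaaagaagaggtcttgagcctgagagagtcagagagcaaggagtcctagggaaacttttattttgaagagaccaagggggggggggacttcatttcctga

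That stretch held no word of the 13 motif groups. RefSeq promoter sequences were matched by symbol for 7 of the genes, and the others are not shown because they share bases with annotated exons or with peaks of at most 1 construct.

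Pdgfrb (chr18:61045150-61085061, plus strand) had 22 sites from 12 constructs, and 19 of them held a single construct. It also had one of the most shared sites of all 10 windows. That site, chr18:61010120-61011009, lay 34.6 kb upstream of Pdgfrb in an intron of Slc6a7, 3657 bp from the start of that transporter gene, and held peaks of 10 constructs in 12 lists. Both BHLHB8-HA lists and both SOX2-HA lists were among them, together with CDX2-HA, DLX1-HA, DLX6-HA, DUXBL-HA, EBF1-HA, SIX6-HA, SOX15-HA and the only NANOG-HA peak near any of the 10 genes. All 12 peaks had 153 bp in common. The site is nearer to Slc6a7 than to Pdgfrb, and which gene it acts on was not tested. Within 1 kb of the Pdgfrb start there were only a peak of ZFP319-HA, 31 bp from it, and a peak of BHLHB8-HA replicate 2, 484 bp from it.

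The 3 transcription factor genes were unlike each other. Twist1 (chr12:33957671-33959829, plus strand) had 8 sites from 7 constructs, none with more than 2 constructs. Peaks of BHLHB8-HA (both lists), EBF1-HA and TEAD1-HA lay within 1 kb of its start, in a site 679 bp upstream and a site over the coding exon. Its relative Twist2 (chr1:91801461-91848028, plus strand) had 34 sites from 14 constructs, and the start of Twist2 was the nearest to all 34. Within 1 kb of the Twist2 start the only peaks were of BHLHB8-HA.

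The Twist2 window had 3 sites of 5 or more constructs, 2 in an intron and 1 past the end of the gene. The printed one, 15.3 kb into the gene (chr1:91816437-91817086), held peaks of BHLHB8-HA replicate 1, DLX1-HA, DLX6-HA, EBF1-HA, MAX-HA, SOX15-HA and both SOX2-HA lists, with 129 bp in common. A second, 22.1 kb into the gene (chr1:91822882-91824148), also held 7 constructs: both BHLHB8-HA lists, DLX1-HA, DLX6-HA, EBF1-HA, FOXA1-HA replicate 1, SOX2-HA replicate 1 and TEAD1-HA. A site of 6 constructs lay 48.9 kb from the start, just past the end of the gene (chr1:91849719-91850961). At the latter 2 sites no base was common to all peaks, in each case because of a single peak. At the site 22.1 kb into the gene, the TEAD1-HA peak (chr1:91823881-91824148) lay beyond those of DLX1-HA, DLX6-HA, FOXA1-HA and SOX2-HA. At the site past the end of the gene, the BHLHB8-HA replicate 2 peak (chr1:91849719-91850081) lay apart from those of the other constructs. The remaining peaks of each site, BHLHB8-HA replicate 1 included, had bases in common.

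Prrx1 (chr1:163245119-163313710, minus strand) had the most sites, 39, and 24 of them were in the gene body. Most were occupied by 1 construct (27 sites), and the 11 sites of 2 to 4 constructs included 2 intronic sites of 4, at 33.0 kb and 61.2 kb from the start. Only 1 site reached 5 constructs. It lay 104 kb from the start, past the end of the gene (chr1:163208891-163209730), and held BHLHB8-HA replicate 1, DLX1-HA, DLX6-HA, FOXA1-HA replicate 1, SIX6-HA and SOX2-HA replicate 1. No base was common to all peaks of that site. Prrx1 was also where MAX-HA, a partner of MYC, had 7 of its 16 peaks in the 10 windows, from 33.0 kb inside the gene to 45.4 kb upstream. The zinc finger protein ZFP319-HA had 7 peaks there too, among them the one at the start, 1244 bp wide.

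The 2 genes of the cytoskeleton had shared sites at their starts. Vim (chr2:13573927-13582826, plus strand) had 29 sites from 14 constructs, 20 of them upstream, and 5 sites of 5 or more constructs. The site of most constructs in any of the 10 windows lay 15.2 kb upstream of Vim (chr2:13558266-13559175), with 11 constructs in 12 lists: BHLHB8-HA replicate 1, CDX2-HA, DLX1-HA, DLX6-HA, DUXBL-HA, EBF1-HA, FOXA1-HA replicate 1, HLF-HA, SIX6-HA, SOX15-HA and both SOX2-HA lists. The peaks spread around it, and 14 bp were common to all 12. A site of 6 constructs lay beside it, 16.3 kb upstream. The 2 sites lie between Vim and the methyltransferase gene Trdmt1, at 14053 bp and 12923 bp from the Trdmt1 start, so that both are slightly nearer to Trdmt1.

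The Vim window had 3 more sites of 5 or more constructs. One was 47.7 kb upstream in an intron of Trdmt1 (6 constructs), and one was 19.7 kb from the start, downstream of the gene (6 constructs, with both SOX2-HA lists). The third was at the Vim start (chr2:13573426-13574245), where DLX6-HA, DUXBL-HA, EBF1-HA, SIX6-HA and SOX2-HA replicate 1 had peaks. With BHLHB8-HA and ZFP319-HA close by, 7 constructs had a peak within 1 kb of the Vim start. SOX2-HA replicate 1 had 13 peaks in the Vim window and replicate 2 had 5, the most of either list at any of the 10 genes.

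**Figure D3:**
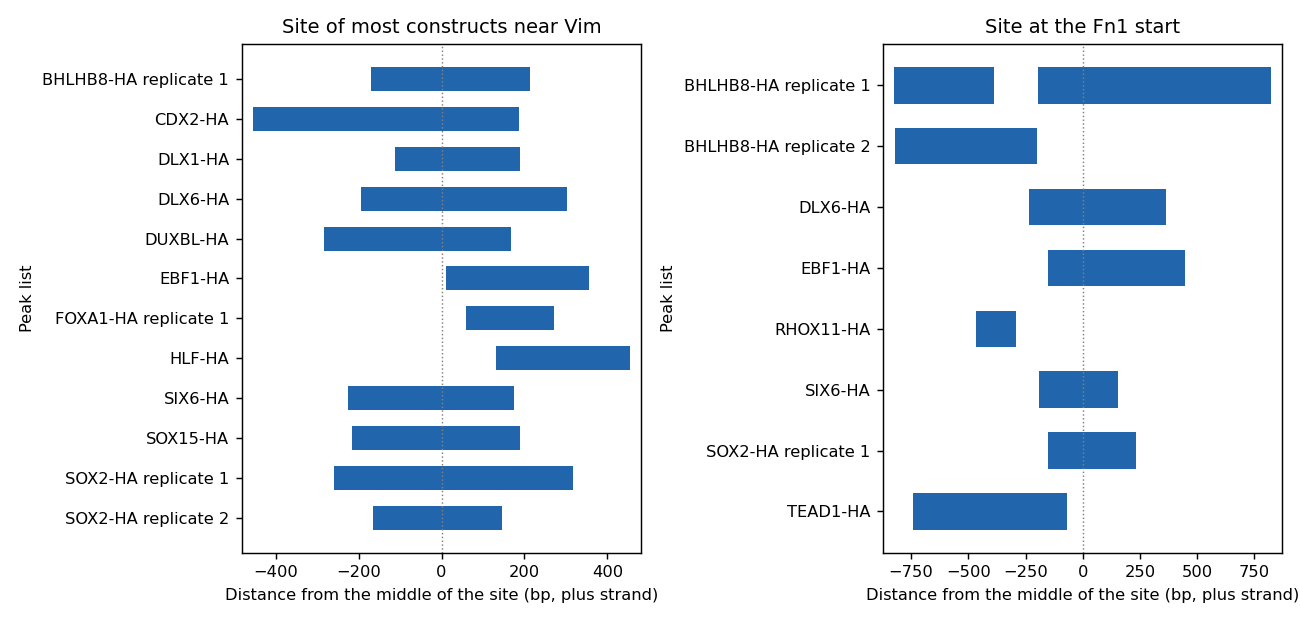
Peaks of each list at the site of 11 constructs upstream of Vim and at the site over the Fn1 start, by distance from the middle of the site (bp, plus strand, so that transcription of Fn1 runs to the left). Bars are the peaks as called. At Vim the 12 lists share 14 bp, and at Fn1 no base is common to all 8 lists.

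Acta2 (chr19:34241090-34255590, minus strand) had 21 sites from 11 constructs. Its leading site covered the start and the first intron (chr19:34254763-34255762) and held both BHLHB8-HA lists, CDX2-HA, DLX1-HA, DLX6-HA, FOXA1-HA replicate 1 and SOX2-HA replicate 1. The middles of the CDX2-HA, DLX1-HA, DLX6-HA and FOXA1-HA peaks were 503, 575, 542 and 604 bp into the gene, and that of SOX2-HA was 371 bp into it. The other site of 5 constructs was 60.1 kb from the start in an intron of Stambpl1, 3282 bp from the start of that gene. Neither this site nor the leading site had a base common to all its peaks.

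S100a4 (chr3:90603771-90606045, plus strand) stands in a cluster of S100 genes, and only 2 of its 22 sites had its start as the nearest. Its window held peaks of 14 constructs. The leading site, 28.8 kb upstream in an intron of S100a3 (chr3:90574395-90575605), held both BHLHB8-HA lists, CDX2-HA, DLX1-HA, DLX6-HA, SIX6-HA and SOX2-HA replicate 1. Its peaks had no base common to all of them. A site of 5 constructs 11.4 kb from the start, in an intron of S100a6 (chr3:90614811-90615581), was the only one near the 10 genes with peaks of both FOXA1-HA lists. In the intron of S100a4 itself, 975 bp from its start, BHLHB8-HA (both lists), DLX1-HA, DLX6-HA and SOX2-HA replicate 1 had 262 bp in common. The S100a4 window was as much that of S100a2, S100a3, S100a5, S100a6 and S100a7a, and which of these genes a peak there belongs to was not tested.

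Fn1 (chr1:71585520-71653200, minus strand) had 19 sites from 14 constructs, with 12 sites upstream and 3 in the gene body. The leading site, 27.1 kb upstream (chr1:71679872-71680796), held 8 constructs: DLX1-HA, DLX6-HA, DUXBL-HA, FOXA1-HA replicate 1, MAX-HA, SIX6-HA, SOX15-HA and both SOX2-HA lists. BHLHB8-HA was absent from it, and no base was common to all its peaks. A site over the start (chr1:71652539-71654185) held 7 constructs: both BHLHB8-HA lists, DLX6-HA, EBF1-HA, RHOX11-HA, SIX6-HA, SOX2-HA replicate 1 and TEAD1-HA. This site was 1647 bp wide, and no base was common to all its peaks. Along it, the peaks of DLX6-HA, EBF1-HA, SIX6-HA and SOX2-HA centred upstream of the start (-226, -310, -141 and -204 bp), and those of RHOX11-HA and TEAD1-HA centred inside the gene (218 and 244 bp).

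Peaks at the gene starts were more frequent among the 10 genes than among all genes. At least 1 construct had a peak within 1 kb of the start at 9 of the 10 genes, against 57.3% of all protein-coding genes. Peaks of 3 or more constructs were found at 7 of 10 (20.8% of all genes), and peaks of 5 or more constructs at 5 of 10 (4.75%), namely Pdgfra, Vim, S100a4, Fn1 and Acta2. The last count depended on the settings, with 3 of 10 genes (Vim, Fn1 and Acta2) left within 500 bp of the start, beside 2.89% of all genes, and 2 of 10 (S100a4 and Fn1) left with peaks of at least 300 bp, beside 1.10%. No gene of the 10 reached 10 constructs, as did 0.137% of all genes. In all, 41 of the 240 pairs of a gene and a construct had a peak there. These shares are a description, and whether the 10 genes were active or their promoters open was not analysed here.

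**Figure D4:**
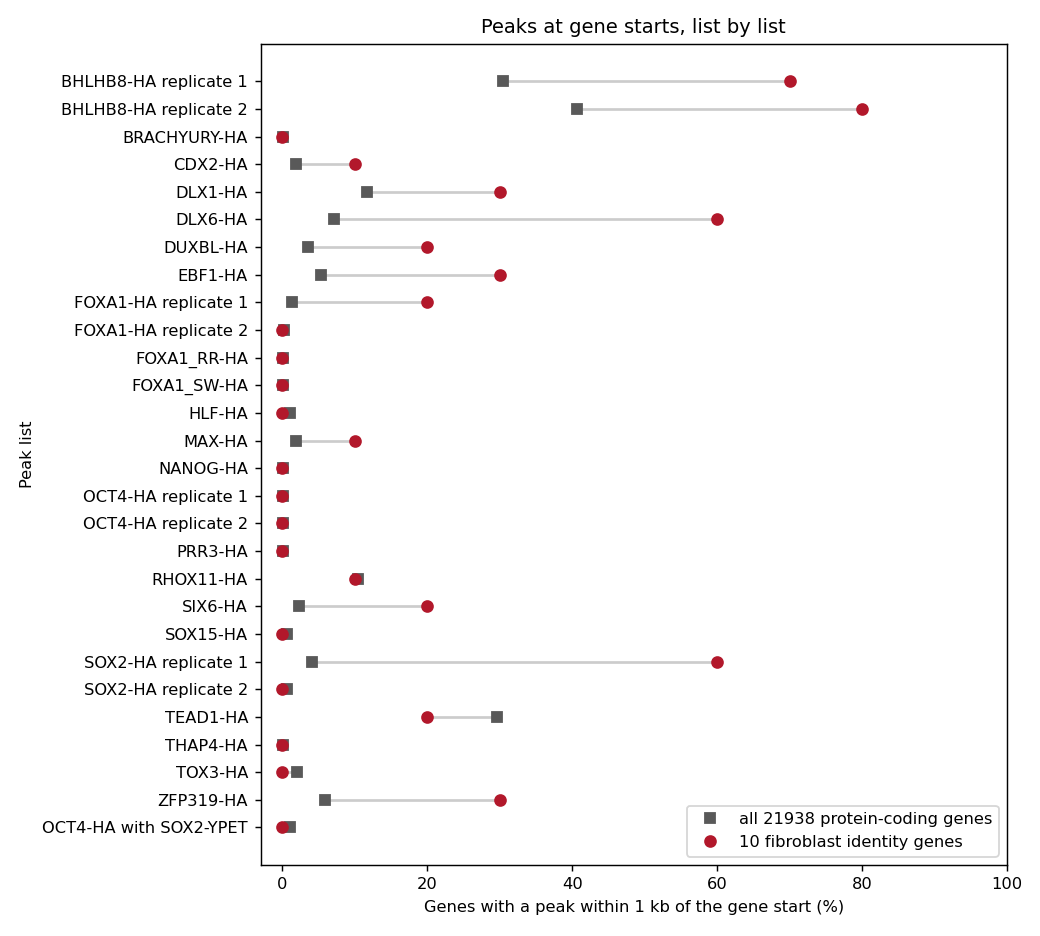
Share of genes with a peak within 1 kb of the gene start for each of the 28 lists, in the 10 fibroblast identity genes (red circles) and in all 21938 protein-coding genes (grey squares). DLX6-HA and SOX2-HA replicate 1 have peaks at 6 of the 10 starts, TEAD1-HA at 2, and 14 of the 28 lists at none.

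DLX6-HA and SOX2-HA had peaks at the same 6 starts: Pdgfra, Prrx1, Vim, S100a4, Fn1 and Acta2. For DLX6-HA, a homeodomain factor of limb and jaw development, these 6 of 10 stood beside 7.14% of all genes. For SOX2-HA, an HMG-box factor of pluripotent and neural cells, they stood beside 4.11% of all genes. All 6 SOX2-HA peaks came from replicate 1, whereas replicate 2 had a peak at 0 of the 10 starts and at 0.620% of all starts. BHLHB8-HA reached 9 of the 10 starts, beside 43.8% of all genes, with 7 in replicate 1 and 8 in replicate 2. TEAD1-HA had peaks at 2 of 10 starts (Twist1 and Fn1), which is near its share of 29.6% over all genes. FOXA1-HA had 2 starts, Pdgfra and Acta2, both in replicate 1 only (1.39% of all genes for the construct).

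The other constructs had peaks at few starts or none. DLX1-HA had them at 3 (Pdgfra, S100a4 and Acta2), beside 11.7% of all genes, EBF1-HA at 3 (Twist1, Vim and Fn1), beside 5.38%, and ZFP319-HA at 3 (Pdgfrb, Prrx1 and Vim), beside 5.83%. DUXBL-HA was at the Vim and S100a4 starts (3.60% of all genes) and SIX6-HA at the Vim and Fn1 starts (2.22%). CDX2-HA was at Acta2 (1.90%), MAX-HA at Pdgfra (1.86%) and RHOX11-HA at Fn1 (10.5%). No start of the 10 had a peak of TOX3-HA (2.04%), OCT4-HA with SOX2-YPET (1.03%), HLF-HA (1.01%) or SOX15-HA (0.588%). The same held for BRACHYURY-HA (0.0820%), THAP4-HA (0.0547%), FOXA1_SW-HA (0.0501%), OCT4-HA (0.0456%), FOXA1_RR-HA (0.0410%), NANOG-HA (0.0410%) and PRR3-HA (0.0228%). At such background shares a count of 0 in 10 carries little information.

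In the whole windows the constructs fell into 3 sets. BHLHB8-HA, DLX6-HA and SOX2-HA had a peak at all 10 genes, where 86.0%, 53.1% and 57.8% of all genes had one. CDX2-HA (56.4%), DLX1-HA (60.6%), DUXBL-HA (64.2%) and TEAD1-HA (68.8%) had peaks at 9 genes. EBF1-HA (38.8%) and ZFP319-HA (59.4%) had peaks at 8, FOXA1-HA (28.2%) and MAX-HA (23.0%) at 7, SIX6-HA (27.8%) at 6, SOX15-HA (22.0%) at 5 and RHOX11-HA (34.3%) at 4. HLF-HA (15.7%), NANOG-HA (1.83%) and OCT4-HA with SOX2-YPET (15.9%) had a peak at 1 gene each. The remaining 7 constructs, BRACHYURY-HA (3.92%), TOX3-HA (10.1%), FOXA1_RR-HA (0.921%), FOXA1_SW-HA (0.884%), OCT4-HA (0.770%), PRR3-HA (0.451%) and THAP4-HA (0.447%), had none. RHOX11-HA was thus close to its share over all genes, and for the shortest lists a count of 0 is what their background would give.

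**Figure D5:**
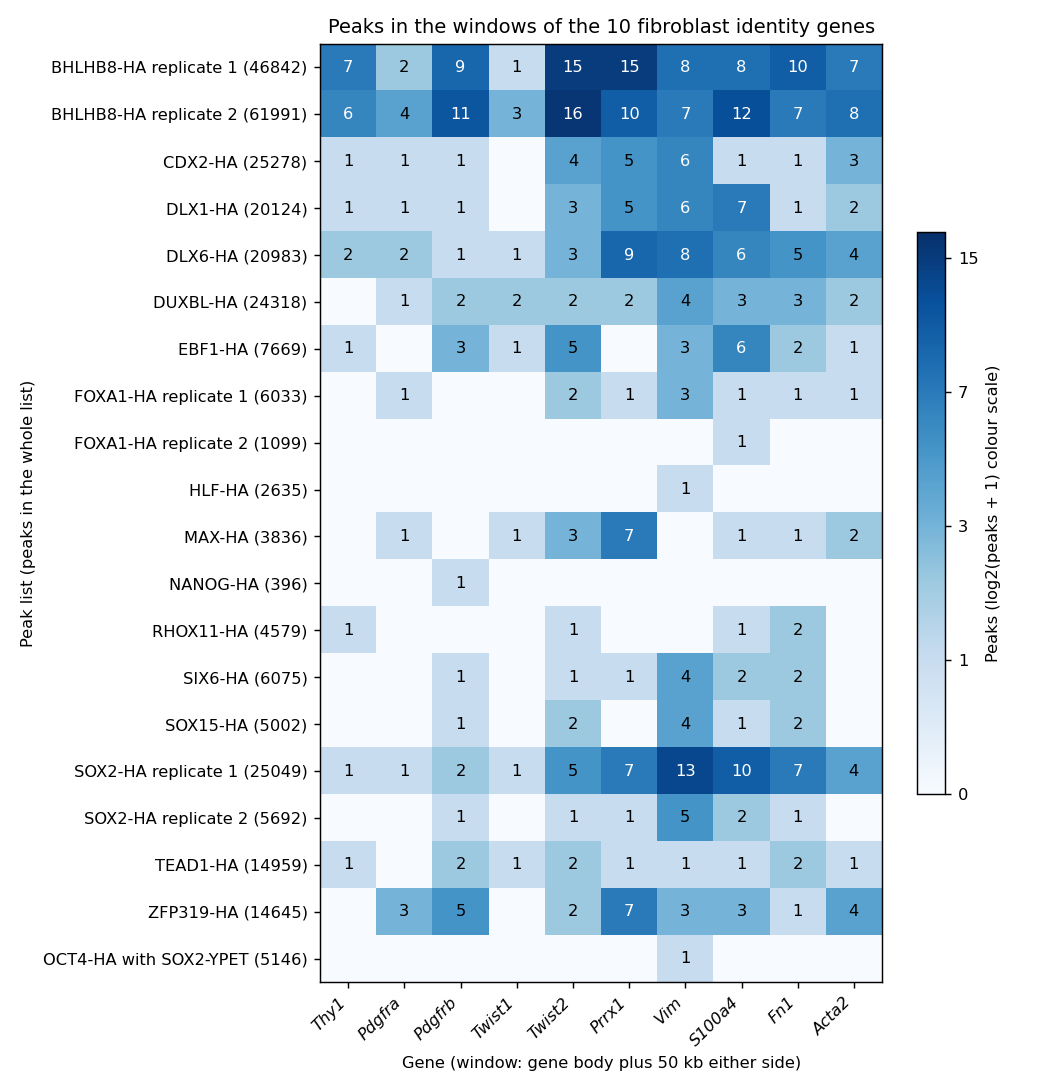
Number of peaks in the window of each gene (columns) for each of the 20 lists with at least 1 such peak (rows, with the peaks of the whole list in parentheses), on a colour scale of log2(peaks + 1). BHLHB8-HA fills every column, SOX2-HA replicate 1 is densest at Vim (13 peaks) and S100a4 (10), and MAX-HA at Prrx1 (7).

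List by list, the density of peaks in the 10 windows was above that of the whole genome for most constructs with peaks there. The ratio was 3.56 and 2.76 for the 2 BHLHB8-HA lists, 4.14 and 3.93 for the 2 SOX2-HA lists, and 3.37 and 1.85 for the 2 FOXA1-HA lists. It was 3.97 for DLX6-HA (41 peaks), 5.83 for EBF1-HA (22 peaks) and 8.48 for MAX-HA (16 peaks), the highest of all lists. The 16 MAX-HA peaks were 0.417% of its list (95% exact binomial interval 0.239 to 0.676%), against 0.0802% (0.0415 to 0.140%) for TEAD1-HA, whose ratio was 1.63. Such intervals reflect the number of peaks counted and leave out the variation from library to library. Windows of genes are denser than the genome as a whole (a median of 8.83 sites per 100 kb against 6.36 over the genome), so that a ratio above 1 is not particular to these genes.

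Most sites belonged to 1 construct, as did most sites near any protein-coding gene. Of the 220 sites, 152 (69.1%) held a single construct, 52 (23.6%) held 2 to 4, 14 held 5 to 9 and 2 held 10 or more. Among sites near any protein-coding gene, 75.1% held a single construct and 19.3% held 2 to 4. The 16 sites of 5 or more constructs were 7.27% of the 220 (95% exact binomial interval 4.21 to 11.5%), and among sites near any protein-coding gene the share was 5.68%. At least 1 such site was in the windows of 7 of the 10 genes, against 36.2% of all genes, and a site of 10 or more constructs in those of 2 (Vim and Pdgfrb), against 4.06%. SOX2-HA had a peak at all 16 of these sites, DLX6-HA at 15 and BHLHB8-HA at 12. Over all 9440 such sites of the genome the shares were 87.7% for SOX2-HA, 90.1% for DLX6-HA and 94.0% for BHLHB8-HA. DLX1-HA was at 11 of the 16 (80.7% over all such sites) and SIX6-HA at 9 (39.2%). FOXA1-HA (37.1%) and EBF1-HA (34.4%) were at 8 each, and CDX2-HA (27.9%) and SOX15-HA (37.7%) at 7 each. ZFP319-HA, with 28 peaks in the windows, was at 0 (14.4%), and at such a share few are to be found among 16 sites.

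Constructs differed in how far their sites were their own. Of the 28 ZFP319-HA sites, 24 (85.7%) held no other construct, against 74.0% of its sites in the whole genome. For BHLHB8-HA this was so at 71 of 121 sites (58.7%, against 61.7%), for CDX2-HA at 13 of 23 (56.5%, against 78.0%) and for DUXBL-HA at 12 of 21 (57.1%, against 76.0%). No FOXA1-HA, SIX6-HA or SOX15-HA site (10 each) was alone, and in the whole genome only 12.4%, 11.3% and 4.34% of their sites were. All 10 SIX6-HA sites and all 10 SOX15-HA sites were also SOX2-HA sites, as were 9 of the 10 FOXA1-HA sites. Over all sites of the genome these shares were 61.5%, 90.5% and 63.5%, so that the SOX15-HA overlap was near its share elsewhere. DLX6-HA and SOX2-HA met at 31 sites, which is 77.5% of the DLX6-HA sites and 60.8% of the SOX2-HA sites, against 64.1% and 52.6% over all sites of the genome. The FOXA1-HA sites in this comparison rest on replicate 1, since replicate 2 had 1 of them.

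Sites lay mostly far from the gene starts, as they did in the windows of all protein-coding genes. Of the 220, 14 (6.36%) had their middle within 1 kb of the start, 39 (17.7%) at 1 to 10 kb, 128 (58.2%) at 10 to 50 kb, and 39 beyond. Over the windows of all protein-coding genes the shares were, in this order, 5.33%, 12.2%, 53.4% and 29.1%. The last compares with 17.7% for the 39 sites beyond 50 kb here. In 100 cases the middle of the site was outside protein-coding genes, in 47 it was in an intron of the gene itself and in 49 in an intron of a neighbour. For 136 of the 220 sites the nearest start of a protein-coding gene was that of the gene whose window it was, and this share ran from 34 of 34 at Twist2 and 36 of 39 at Prrx1 to 6 of 22 at Pdgfrb and 2 of 22 at S100a4.

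Wild-type and mutant FOXA1 and OCT4 with and without SOX2 could only be set side by side. FOXA1-HA had 10 peaks in the windows in replicate 1 and 1 in replicate 2, and FOXA1_RR-HA and FOXA1_SW-HA had 0 each. The mutant lists held 151 and 147 peaks in all, and 0 of them allows a share of up to 2.41% and 2.48% (upper bounds of the 95% exact interval), well above the 0.166% of FOXA1-HA replicate 1. At this list length a loss at these genes was not detectable. OCT4-HA had 0 peaks in both lists (95 and 52 peaks in all). OCT4-HA with SOX2-YPET had 1 of its 5146 peaks there, 4.82 kb from the Vim start, and no other construct shared it, whereas SOX2-HA alone had 51 peaks in replicate 1 and 11 in replicate 2. The co-expression was done once, its ratio to the genome density was 0.395, and the antibody saw OCT4 and not SOX2.

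The duplicate lists gave the error between libraries at these genes. BHLHB8-HA occupied 80 sites in replicate 1 and 83 in replicate 2, of which 42 were the same, or 34.7% of the 121 occupied in either. SOX2-HA occupied 51 and 11 sites, and all 11 of the shorter list were in the longer one (21.6% of those in either). FOXA1-HA occupied 10 and 1, with that 1 in common, and OCT4-HA none. The mean share in common over the 4 duplicated constructs, with OCT4-HA, which had no site, entered as 0, was 16.6%, whereas re-pairing the 8 lists in every possible way gave a median of 5.42% (p = 0.00952, exact one-sided permutation test over pairings, the smallest p that these allow). Of the 80 BHLHB8-HA sites of the shorter list, 52.5% were in the longer one, whereas most sites of the longer SOX2-HA and FOXA1-HA lists were missing from the shorter. Over all sites of the genome, the longer list held 53.1% of the shorter for BHLHB8-HA, 93.0% for SOX2-HA and 78.3% for FOXA1-HA. The duplicates also differed in length, with 25049 and 5692 peaks for SOX2-HA and 6033 and 1099 for FOXA1-HA, and the part of this difference was not tested. At Prrx1, for example, BHLHB8-HA replicate 1 had 15 sites and replicate 2 had 10, with 6 in common, and at Vim 8 and 7 with 1 in common, whereas at S100a4 all 8 sites of replicate 1 were among the 12 of replicate 2.

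The motif groups were counted in the central 200 bp of the 220 sites, on both strands. They were AP-1, SOX and forkhead as above, BHLHB8 (CAGCTG), MAX (CACGTG), TEAD1 (CATTCC), CDX2 (TTTATTG or TTTATGA), DUXBL (TAATCNAAT), EBF1 (CCCNNGGGA), HLF (TTACGTAA or TTACATAA), OCT4 (ATGCAAAT or ATGCTAAT), homeodomain (TAATTA) and SIX6 (GGTATCA). An AP-1 word was in 25 of the 220 sites (11.4%), and in 9.81% of all merged sites. A SOX word was in 57 (25.9%), and in 26.7% of all sites. Short words are common by their length alone, and for all 300-base RefSeq promoters (27025 genes) the shares were 5.17% for AP-1, 28.8% for SOX and 16.1% for CAGCTG.

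The words of a factor were more often in its own sites for several constructs. The SOX word was in 25 of the 51 SOX2-HA sites (49.0%) and in 18.9% of the other sites near the 10 genes. CAGCTG was in 34 of the 121 BHLHB8-HA sites (28.1%) and in 7.07% of the others. The CDX2 words were in 8 of the 23 CDX2-HA sites (34.8%) and in 3.55% of the others, and the EBF1 word was in 4 of 22 (18.2%) and in 2.02%. Over all sites of the same constructs in the genome the shares were 47.7%, 33.6%, 48.0% and 22.7%, so that the CDX2-HA share here was below its share elsewhere. The MAX word CACGTG was in 0 of the 16 MAX-HA sites and in 2.99% of all MAX-HA sites, so that the middles of its sites at Prrx1 carried no such word. The TEAD1 word was in 1 of the 12 TEAD1-HA sites (8.33%) and in 14.9% of the others, the reverse order. Over all TEAD1-HA sites of the genome the share was 4.95%, so that a low share was not particular to these genes. At the 16 sites of 5 or more constructs a SOX word was in 8 and an AP-1 word in 3, and over all such sites the shares were 34.5% and 24.5%.

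Lists of 30 other mesenchymal genes and 20 epithelial genes gave the setting. The median number of sites per 100 kb was 17.0 for the 10 genes, 12.7 for the mesenchymal list (from 0.394 at Cdh11, a cadherin of mesenchymal cells, to 24.9 at Snai1, a repressor of epithelial genes) and 13.8 for the epithelial list (from 2.58 at Esrp1, a splicing factor of epithelia, to 28.9 at Krt18, a keratin). Both lists thus had medians above the 8.83 of all genes. Without the BHLHB8-HA lists the medians were 10.4 for the 10 genes, 9.90 for the mesenchymal list and 7.88 for the epithelial list, beside 5.69 for all genes. The order of the mesenchymal and epithelial lists thus rested on the BHLHB8-HA lists, and so did most of the lead of the 10 genes over the mesenchymal list. At the starts the lists differed for some constructs and less for others. Peaks of 5 or more constructs within 1 kb of the start were found at 5 of the 10 genes, at 8 of the 30 mesenchymal genes and at 0 of the 20 epithelial genes, beside 4.75% of all genes. SOX2-HA had a peak at 6 of 10, 9 of 30 and 0 of 20 starts (4.11% of all genes), and BHLHB8-HA at 9 of 10, 17 of 30 and 3 of 20 (43.8%). At shares of 4.75% and 4.11% a count of 0 in 20 carries little information. DLX6-HA had a peak at 6 of 10, 7 of 30 and 3 of 20 (7.14%), and EBF1-HA at 3 of 10, 6 of 30 and 3 of 20 (5.38%). TEAD1-HA had one at 2 of 10, 8 of 30 and 7 of 20 (29.6%). A site of 5 or more constructs in the window was found at 7 of 10, 23 of 30 and 11 of 20 genes, beside 36.2% of all genes, so that all 3 lists were above that share. No test was made between the lists.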

How the data were processed

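The study measured the binding of HA-tagged transcription factors in NIH-3T3 cells by ChIP-seq. The authors aligned paired-end reads to mm10 with STAR 2.5.3a, removed duplicate reads with Picard, and called peaks for each sample with MACS2 2.1.1.20160309. Blacklisted regions and peaks also seen in input were taken out. The deposited lists give positions alone (chromosome and both ends, in bp), with no score, so that depth is unknown and no interval reflects it. Groups and replicate numbers came from the labels, and the duplicates are biological replicates per the study's methods. The input sample was not used here.

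Coordinates were converted to count from 1 on GRCm38, with GENCODE release M21 genes. Touching peaks were merged into sites, and a site belonged to a window (50 kb either side of the gene) it overlapped by at least 1 bp. Gene starts were the annotated first bases of the genes in the direction of transcription, and peaks were counted there if they overlapped 1 kb either side. Shares among all protein-coding genes served as background, and no test was made over the members, motifs or gene lists. Duplicates were compared by an exact one-sided permutation test over pairings. Site middles were annotated with protein-coding genes. Sequences came from the GRCm38 genome and the RefSeq promoter table (GRCm38.p6).

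All 10 genes are named. Sites are named by position if they lead their window, hold 5 or more constructs or lie at a start. Genes of the other lists are named only if highest or lowest. A few further sites, with 4 constructs or single peaks, were named after their values were seen. The leading sequence at Acta2 is not printed because it overlaps an annotated exon. The members, gene lists and motifs were chosen with earlier results of these data known. Other windows, peak widths, merging, starts and left-out lists were tried as alternatives. Python 3.11.15, NumPy 2.4.6, SciPy 1.17.1 and Matplotlib 3.10.9 were used. The site and motif counts were tested on simulated data, where 400 of 400 shared sites were recovered.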

Additional observations from a re-analysis of the deposited data

How the results depend on the processing

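Of 60 values recomputed under alternatives, 52 kept their size within 1.5 times or their side of the threshold. This number says little about the site counts. Many of the 60 leave out a single list, and the OCT4-HA lists, with 0 peaks in the windows, could not change a count there. The values that moved were the sites and the sites of 5 or more constructs, under both other windows, nearest-start counting and the width filter. Counts of single genes, many of which moved, are not among the 60. With windows of 10 kb either side the 220 sites became 99 and the 16 sites of 5 or more constructs became 7, and with 100 kb they became 347 and 25. Counting a site only where the nearest start was that of its gene left 136 and 9. Keeping peaks of at least 300 bp, a stand-in for a stricter threshold, left 133 and 5. Without each replicate in turn of the 4 duplicated constructs the sites ranged from 184 to 220, the shared sites from 13 to 16, the pairs of a gene and a construct in the windows (114 in all) from 108 to 114, and those within 1 kb of a start (41 in all) from 35 to 41. Without SOX2-HA replicate 1 the SOX2-HA peaks at 6 starts were lost. Without both BHLHB8-HA lists, an alternative chosen after seeing the data, the 4 values were 150, 13, 104 and 32. The agreement of duplicates held under all 5 alternatives, with p from 0.00952 to 0.0190 (exact one-sided permutation test over pairings, with 16.6% in common in the main comparison and 9.98 to 63.1% in the others, where the measure differs). No paired analysis was possible because no result compares groups by a test, and replicate numbers only name the 2 lists of a construct. Depth is unknown, so a peak missing from a list may be a lack of depth or of binding, and these cannot be told apart.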
